A study of Mus musculus with 6 samples.

Results

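The enteroendocrine genes of the mouse colon were described here as a set of 10, of 27546 genes with a value: Chga, Chgb, Neurod1, Gcg, Pyy, Insl5, Sst, Cck, Nts, and Tph1. The genes were taken by their symbols, with earlier results of these data known, and all 10 had a row and passed the filter on low values. Their transcripts were measured by RNA-Seq in the distal colon, with 3 Gm31629-/- libraries and 3 from WT littermates, all of the strain C57BL/6 (C57BL/6J in the methods). At 8 weeks of age every mouse drank 3% DSS (dextran sulfate sodium, which injures the colonic epithelium) over 7 days and was killed on day 8, so both groups carry the injury and no untreated mice stand beside them. Gm31629 is a long noncoding RNA gene on chromosome 1, and the methods name no promoter or cell type that would limit its deletion. Gm31629 has no row among the genes used here, so the deletion could not be checked in the libraries.

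Enteroendocrine cells are scattered hormone-secreting cells of the gut epithelium. They arise from crypt progenitors that pass through a short stage marked by the transcription factor Neurog3, and they store peptides or serotonin in granules built on chromogranins. In the distal colon, L cells make proglucagon peptides, peptide YY, and insulin-like peptide 5, D cells make somatostatin, and enterochromaffin cells make serotonin, whereas neurotensin is better known from cells of the ileum. In whole tissue, fewer cells of a type and less RNA per cell cannot be told apart.

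Some features of the libraries precede the results. Transcripts of the Y-linked genes Ddx3y, Uty, Kdm5d, and Eif2s3y were present in Gm31629-/- mouse 1 and listed at 0 in the other 5 mice, whereas Xist was at 0.00606 FPKM in that mouse and at 8.35 to 13.8 FPKM in the others. The methods name male mice, so these values go against that description in 5 libraries, and results are also given without mouse 1. The methods also speak of pooled RNA while the deposited table has a column for each mouse, so p-values measure the spread between these libraries. Across 14657 tested genes, 23.1% were called (18.4% higher and 4.64% lower in Gm31629-/- mice), the median log2 fold change was 0.15, and 57.8% had groups that did not overlap. The split of calls moved with the scaling: 79.9% of called genes were higher as deposited, 64.7% after scaling by the median ratio, where the median of all genes was −0.05, and 94.9% after scaling to epithelial markers, where it was 0.62. It was 66.0% where the mean FPKM had to reach 5.

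Of the 10 genes, 4 rose in Gm31629-/- mice (Insl5, Sst, Pyy, and Gcg), 1 fell (Nts), and 5 did not pass the test (Chga, Chgb, Neurod1, Cck, and Tph1). The 5 that passed were the 5 whose groups did not overlap. Among all tested genes 23.1% were called and 57.8% had groups that did not overlap. These shares are the background for the counts of every list below. The peptide hormones of L and D cells were thus 5.42 to 36.8 times as high in the mean FPKM of the knockout group, while the pan-endocrine granule genes Chga and Chgb were 1.24 and 1.05 times as high. A gene was called when its adjusted p from limma was under 0.05 and its log2 fold change of FPKM + 1 was above 1 or below −1. FPKM values (fragments divided by gene length and library depth) take length into account, so levels can be compared between genes. The median log2 fold change of the 10 genes was 0.65, against 0.15 for all genes tested.

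**Figure D1:**
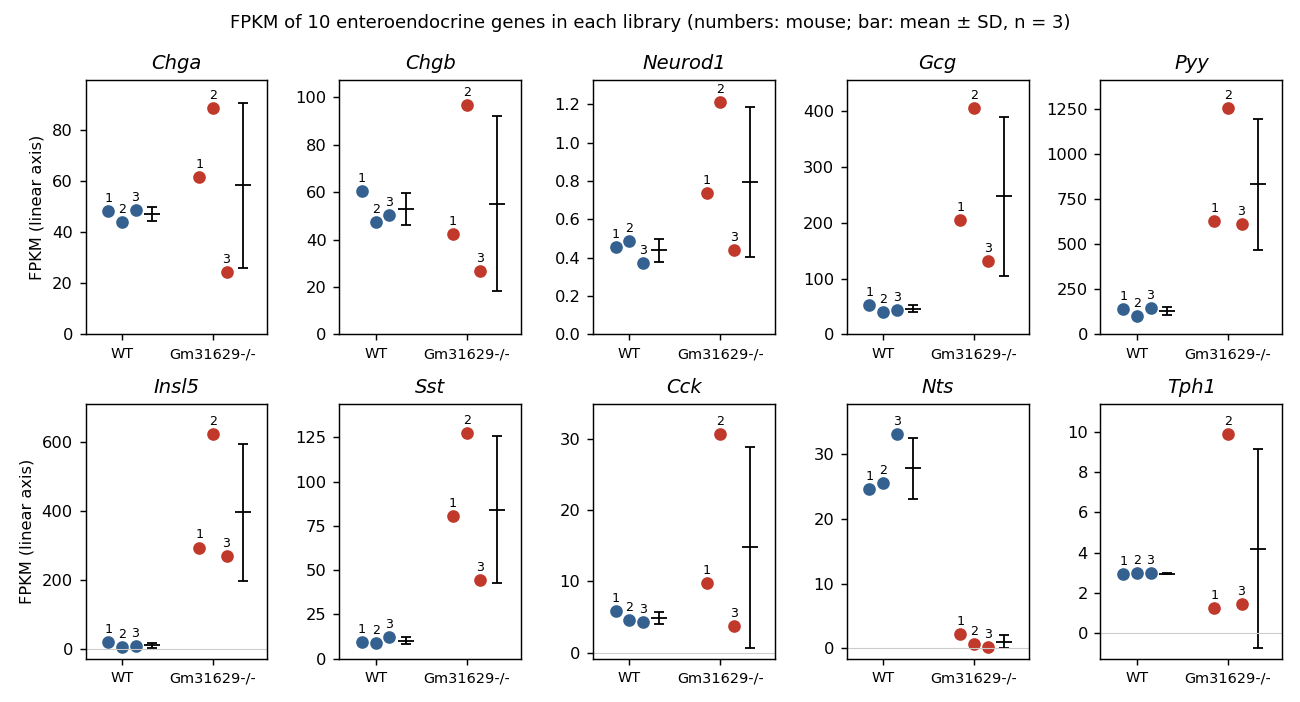
FPKM of the 10 enteroendocrine genes in each library on linear axes, with WT mice in blue and Gm31629-/- mice in red, mouse numbers above the points, and the mean ± SD (n = 3) as a bar. Gcg, Pyy, Insl5, and Sst lie higher in all 3 Gm31629-/- mice and Nts lower, whereas the groups overlap for the other 5 genes, and mouse 2 is the highest Gm31629-/- mouse in every panel but that of Nts.

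The upstream sequences of the 5 called genes are shown because these genes moved apart from Chga and Chgb. Nts moved in the opposite direction to the others. Each sequence is the 250 bases before the RefSeq transcription start on the gene's own strand (GRCm38.p6). The windows are chr4:103026729-103026978 for Insl5, chr11:102107833-102108082 for Pyy, chr2:62483654-62483903 for Gcg, chr16:23890845-23891094 for Sst, and chr10:102490419-102490668 for Nts, all on the minus strand. Capitals mark matches to 3 motifs.
Insl5: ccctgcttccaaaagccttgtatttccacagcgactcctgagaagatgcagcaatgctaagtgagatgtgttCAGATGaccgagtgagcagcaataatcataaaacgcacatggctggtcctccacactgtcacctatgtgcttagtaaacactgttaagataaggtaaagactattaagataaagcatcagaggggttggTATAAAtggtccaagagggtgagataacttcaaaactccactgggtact
Pyy: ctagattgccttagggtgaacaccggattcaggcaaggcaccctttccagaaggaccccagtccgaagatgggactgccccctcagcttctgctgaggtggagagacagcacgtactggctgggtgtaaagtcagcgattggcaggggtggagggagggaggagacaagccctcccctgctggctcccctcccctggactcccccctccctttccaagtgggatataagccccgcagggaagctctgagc
Gcg: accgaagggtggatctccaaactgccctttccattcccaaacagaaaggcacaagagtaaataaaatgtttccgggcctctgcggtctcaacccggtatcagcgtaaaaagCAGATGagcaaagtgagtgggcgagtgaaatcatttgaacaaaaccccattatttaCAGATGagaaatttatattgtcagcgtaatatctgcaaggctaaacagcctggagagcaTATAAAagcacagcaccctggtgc
Sst: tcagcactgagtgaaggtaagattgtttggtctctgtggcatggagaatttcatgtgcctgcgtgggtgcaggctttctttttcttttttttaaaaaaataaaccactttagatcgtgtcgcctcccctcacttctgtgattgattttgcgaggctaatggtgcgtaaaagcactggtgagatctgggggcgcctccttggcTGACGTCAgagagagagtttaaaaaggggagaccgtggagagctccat
Nts: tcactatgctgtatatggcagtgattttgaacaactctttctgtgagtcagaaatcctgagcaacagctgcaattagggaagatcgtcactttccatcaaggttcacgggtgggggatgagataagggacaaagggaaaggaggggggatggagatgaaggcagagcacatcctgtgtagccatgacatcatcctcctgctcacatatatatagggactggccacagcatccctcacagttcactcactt
The motifs searched were the E-box CAGATG on both strands, a form that NEUROD1 is known to bind, the cAMP response element TGACGTCA, which is its own reverse complement, and the TATA box TATAAA on the gene's strand. The E-box was found at 2 places in Gcg and at 1 in Insl5 and in Cck, and in 14.4% of 32851 RefSeq promoter windows of this length. The cAMP response element was found in Sst and Chgb and in 1.55% of all windows, and the TATA box in Gcg and Insl5 and in 7.59%. No letters of Pyy or Nts matched, which says nothing about the factors that act there.

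Insl5 encodes insulin-like peptide 5, an orexigenic hormone made by L cells of the colon and rectum. The gene lies on chromosome 4 (103017872 to 103026842, minus strand, GRCm38). Its FPKM was 295, 625, and 271 in Gm31629-/- mice 1, 2, and 3 and 19.7, 4.99, and 7.64 in WT mice 1, 2, and 3. Every Gm31629-/- library thus lay far above every WT library, and WT mouse 1 was the highest of its group. The mean was 397 ± 198 (SD, n = 3) against 10.8 ± 7.85, and the log2 fold change was 5.17 ± 0.50 (SE, limma adjusted p = 0.000554). Without mouse 1 of the knockout group the log2 fold change was 5.33.

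Pyy encodes peptide YY, which slows transit and limits food intake, and lies on chromosome 11 (102106676 to 102107832, minus strand). It was the most abundant of the 10 genes in both groups. Its FPKM was 632, 1255, and 613 in Gm31629-/- mice and 142, 104, and 145 in WT mice. The lowest Gm31629-/- library was above the highest WT library, and mouse 2 stood at the top. The log2 fold change was 2.60 ± 0.31 (SE, limma adjusted p = 0.00103), and without Gm31629-/- mouse 1 it was 2.76.

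Gcg encodes proglucagon, which L cells cleave to GLP-1 and GLP-2, and lies on chromosome 2 (62474530 to 62483650, minus strand). Its FPKM was 205, 405, and 131 in Gm31629-/- mice and 52.5, 40.3, and 44.0 in WT mice. The groups did not overlap, and the WT values lay close together while those of Gm31629-/- mice spanned 3.08-fold. The log2 fold change was 2.27 ± 0.38 (SE, limma adjusted p = 0.00375), and without Gm31629-/- mouse 1 it was 2.32.

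Sst encodes somatostatin, the inhibitory peptide of D cells that some enteric neurons also make, and lies on chromosome 16 (23889573 to 23890958, minus strand). Its FPKM was 80.7, 127, and 44.6 in Gm31629-/- mice and 9.48, 8.90, and 12.4 in WT mice. All 3 Gm31629-/- libraries were above all 3 WT libraries. The log2 fold change was 2.81 ± 0.36 (SE, limma adjusted p = 0.00138), and without Gm31629-/- mouse 1 it was 2.78. Enteric neuron markers moved in the same direction, as given further on, and their part in the Sst value was not tested.

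Nts, which encodes neurotensin, a peptide of N cells, was the gene of the set that fell. It lies on chromosome 10 (102481756 to 102490486, minus strand). Its FPKM was 2.18, 0.695, and 0.262 in Gm31629-/- mice and 24.6, 25.6, and 33.1 in WT mice. These values correspond to about 50, 16, and 6 fragments against 568, 575, and 777, so the low group rests on few fragments. The mean was 26.6 times as high in WT mice, and the log2 fold change was −3.91 ± 0.34 (SE, limma adjusted p = 0.000374). Without Gm31629-/- mouse 1, whose value was the highest of its group, it was −4.29.

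Chga and Chgb encode chromogranins A and B, the acidic proteins of the secretory granule that mark endocrine cells of many kinds. Chga was at 61.6, 88.7, and 24.5 FPKM in Gm31629-/- mice and at 48.3, 44.0, and 48.8 in WT mice. Chgb was at 42.2, 96.6, and 26.6 FPKM in Gm31629-/- mice and at 60.3, 47.5, and 50.3 in WT mice. For both genes the WT values fell between the highest and the lowest Gm31629-/- value, with mouse 2 above and mouse 3 below. The log2 fold change was 0.12 for Chga (95% interval −0.86 to 1.11, limma adjusted p = 0.828), and the median of all genes was 0.15. For Chgb it was −0.13 (95% interval −1.12 to 0.86, limma adjusted p = 0.824). These intervals reach changes of about 1 on the log2 scale in both directions, and the sign of each value changed with the scaling or with the mice kept.

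Cck encodes cholecystokinin, a hormone that is more abundant in the upper small intestine. Its FPKM was 9.79, 30.7, and 3.80 in Gm31629-/- mice and 5.84, 4.60, and 4.24 in WT mice. Mouse 3 lay below all WT mice and mouse 2 far above them. The log2 fold change was 1.01 (95% interval −0.42 to 2.44, limma adjusted p = 0.213). Without Gm31629-/- mouse 3 it was 1.66 with an adjusted p of 0.0334, and without mouse 2 it was 0.30, so single mice set this value.

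Tph1 encodes the enzyme that starts serotonin synthesis in enterochromaffin cells and, in mice, in mast cells. Its FPKM was 1.28, 9.90, and 1.43 in Gm31629-/- mice and 2.92, 2.99, and 2.97 in WT mice. Mouse 2 was above every WT mouse and mice 1 and 3 below every WT mouse, and the log2 fold change was −0.01 (95% interval −1.35 to 1.32, limma adjusted p = 0.985). Without mouse 2 it was −0.75 with an adjusted p of 0.0135, which is under the threshold on p but not past that on fold. Neurod1, a transcription factor of maturing endocrine cells, was the lowest of the set, at 0.737, 1.21, and 0.439 FPKM in Gm31629-/- mice and 0.456, 0.488, and 0.370 in WT mice. The groups overlapped, with about 19 to 61 fragments a library, and the log2 fold change was 0.30 (95% interval −0.15 to 0.75, limma adjusted p = 0.238). Exons of Neurod1 and of Cerkl share 201 bases, so fragments there may belong to either gene.

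**Figure D2:**
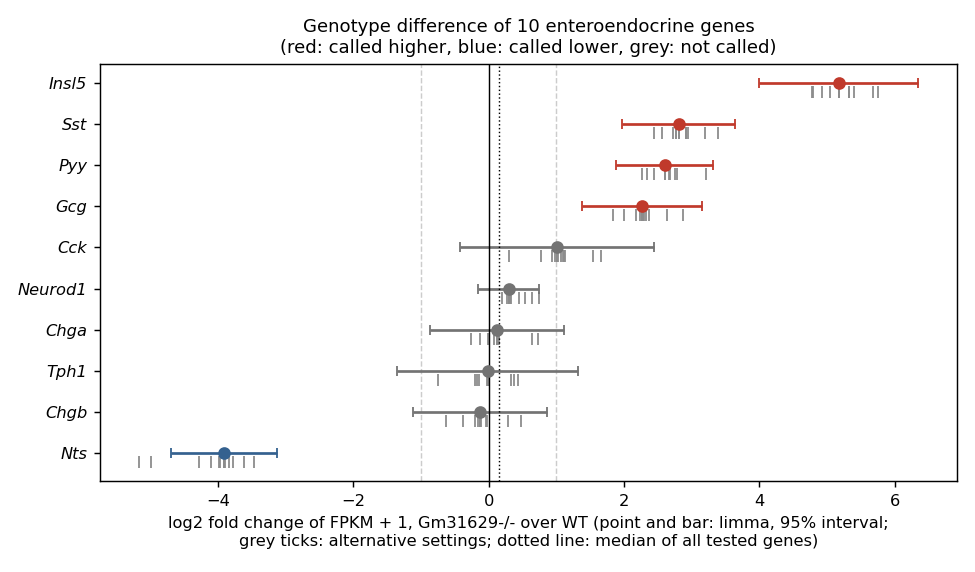
Log2 fold change of FPKM + 1, Gm31629-/- over WT, for the 10 genes, with the limma estimate and its 95% interval (red called higher, blue called lower, grey not called), grey ticks for alternative settings, and a dotted line at the median of all tested genes, 0.15. The intervals of Insl5, Sst, Pyy, Gcg, and Nts lie beyond the dashed lines at 1 and −1, and those of the other 5 genes include 0.

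The 3 Gm31629-/- mice differed from each other more than the WT mice did for most of these genes. Mouse 2 was the highest of its group for 9 of the 10 genes, all but Nts, and mouse 3 was the lowest for 9, all but Tph1. The coefficient of variation was 43.8% to 117% in Gm31629-/- mice and 1.27% to 18.5% in WT mice for every gene but Insl5, where it was 49.9% against 72.8%.

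In WT mice the levels ran in the order Pyy, Chgb, Chga, Gcg, Nts, Insl5, Sst, Cck, Tph1, and Neurod1. The ranges of Chgb and Chga, of Chga and Gcg, and of Insl5 and Sst overlapped, and those of the other neighbours did not. In Gm31629-/- mice the order was Pyy, Insl5, Gcg, Sst, Chga, Chgb, Cck, Tph1, Nts, and Neurod1, and the ranges of all neighbours but Gcg and Sst overlapped. Within each Gm31629-/- mouse Pyy was still above Insl5 and Insl5 above Gcg, in 3 of 3 libraries. Insl5 thus stood at rank 6 by mean FPKM in WT mice and at rank 2 in Gm31629-/- mice, and Nts at ranks 5 and 9.

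The make-up of the hormone transcripts was compared next, as each gene's percent of the summed FPKM of Pyy, Gcg, Insl5, Nts, Sst, and Cck, which does not depend on how a library is scaled. The sum was 1224, 2444, and 1064 FPKM in Gm31629-/- mice and 254, 188, and 246 in WT mice. With 3 mice against 3 the smallest p that the exact two-sided permutation test can give is 0.10, so no share could pass 0.05. Insl5 made up 24.1%, 25.6%, and 25.4% of the sum in Gm31629-/- mice and 7.77%, 2.65%, and 3.10% in WT mice (exact p = 0.1). The Insl5 share was thus alike in the 3 Gm31629-/- mice, at 25.0% ± 0.82 (SD, n = 3), although their Insl5 levels spanned 2.31-fold. Nts made up 0.178%, 0.0284%, and 0.0246% in Gm31629-/- mice and 9.69%, 13.6%, and 13.4% in WT mice (exact p = 0.1). Pyy was the largest share in every mouse, at 53.5% ± 3.56 against 56.6% ± 1.96, with overlapping groups (exact p = 0.3). The Gcg share was 16.7%, 16.6%, and 12.4% in Gm31629-/- mice and 20.7%, 21.4%, and 17.8% in WT mice, without overlap (exact p = 0.1), although the level of Gcg rose. These directions depend on the genes summed: with Chga and Chgb in the sum, the difference in share (Gm31629-/- minus WT) was 0.33 points for Gcg and 10.7 for Pyy, against −4.76 and −3.09 without them. The shares of Sst overlapped, at 5.33% ± 1.21 against 4.50% ± 0.69 (exact p = 0.4), and Cck took 0.804% ± 0.45 against 2.15% ± 0.38 (exact p = 0.1).

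**Figure D3:**
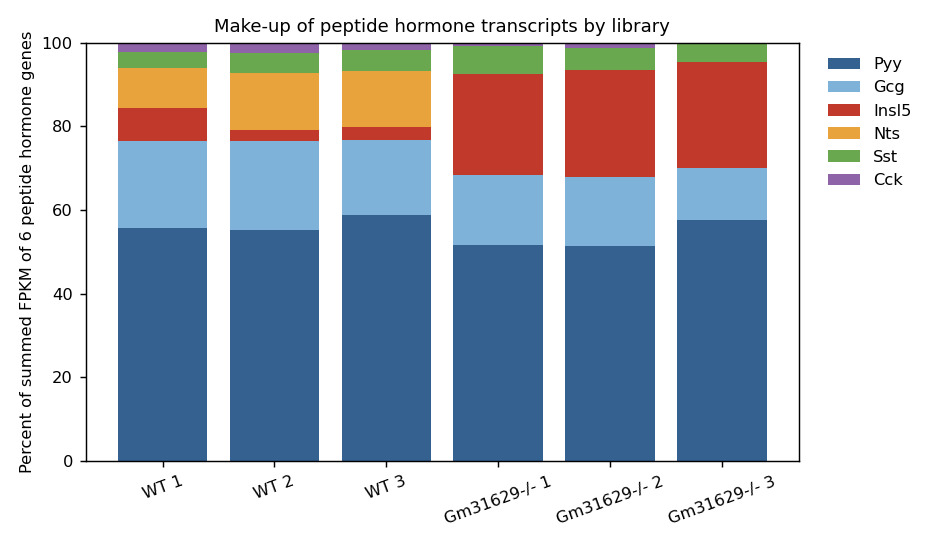
Percent of the summed FPKM of 6 peptide hormone genes in each of the 6 libraries, as bars stacked to 100. The Insl5 segment is 24.1% to 25.6% in the 3 Gm31629-/- mice and 2.65% to 7.77% in the 3 WT mice, the Nts segment is visible in WT mice alone, and the Pyy segment is the largest in each bar.

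Levels relative to Chga in the same library were a measure chosen after seeing the data. They separated the groups for the 5 hormone genes already separated by FPKM, which is not a separate test of those genes. The Insl5 to Chga ratio was 4.79, 7.05, and 11.0 in Gm31629-/- mice and 0.408, 0.113, and 0.157 in WT mice. The Pyy to Chga ratio was 10.3, 14.1, and 25.0 against 2.93, 2.37, and 2.97. In both, mouse 3, the lowest Gm31629-/- mouse by FPKM, had the highest ratio. Gcg to Chga was 3.33 to 5.36 against 0.900 to 1.09, Sst to Chga 1.31 to 1.82 against 0.196 to 0.255, and Nts to Chga 0.00783 to 0.0354 against 0.509 to 0.678, each without overlap (exact p = 0.1, the smallest possible). By this measure Cck and Neurod1, which overlapped in FPKM, did not overlap either, at 0.155 to 0.346 against 0.0868 to 0.121 for Cck and 0.0120 to 0.0179 against 0.00758 to 0.0111 for Neurod1 (exact p = 0.1). Tph1 to Chga overlapped, at 0.0207 to 0.112 against 0.0604 to 0.0680.

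The genes most like each member in pattern were found as those with the smallest root mean square difference of log2(FPKM + 1), each gene centred on its own mean over the 6 libraries. For Insl5 these were Cxcl13 (0.523), Gem (0.593), and Prph (0.649), farther away than for any other called gene. For Gcg they were Itm2a (0.0691), Clip4 (0.146), and Syn1 (0.16), and for Pyy Pld4 (0.116), Il10ra (0.132), and Cyp4f18 (0.154). For Sst they were Plin4 (0.146), Ptn (0.163), and Ngfr (0.164). Gcg was nearest to Pyy among the members (0.28), and Pyy and Sst were nearest to each other (0.279). For Nts the nearest genes were Cbs (0.3), B3gnt6 (0.358), and Hkdc1 (0.386), all lower in Gm31629-/- mice. For Chga they were Upk1b (0.132), Apba2 (0.229), and Tmem65 (0.247), and for Chgb Gm14137 (0.236), Chga (0.264), and Rpp38 (0.271). For Tph1 they were Krt84 (0.228), Nos2 (0.317), and Duoxa2 (0.338), which shared its peak in Gm31629-/- mouse 2. For Cck they were Ighv7-1 (0.0669), Traj1 (0.295), and Mir7078 (0.295), and for Neurod1 Agfg1 (0.0393), Gm14321 (0.0432), and Rhot1 (0.0441). With 6 libraries in 2 groups, this likeness is a description and carries no test.

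Of 15 other gut hormone genes, 12 had a row and 6 were tested, of which 3 rose and 1 fell, with a median log2 fold change of 1.67. Ppy, which encodes pancreatic polypeptide and lies beside Pyy on chromosome 11, was at 50.7, 88.5, and 56.4 FPKM in Gm31629-/- mice and at 6.92, 4.998, and 6.39 in WT mice. The order of the Gm31629-/- mice was thus again led by mouse 2, and the log2 fold change of Ppy was 3.19 (limma adjusted p = 0.000257). Tac1 (substance P precursor, 3.10) and Penk (enkephalin precursor, 4.52), which enteric neurons also make, rose too. Sct, which encodes secretin, fell from 13.2 to 17.7 FPKM in WT mice to 4.22 to 8.57 in Gm31629-/- mice (log2 fold change −1.04, limma adjusted p = 0.0166). Nucb2, the source of nesfatin, did not pass (0.23).

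Of 20 transcription factors of the endocrine lineage, 9 were tested, 3 rose, and none was called lower, with a median of 0.15. Hhex, a factor of D cells that other tissues express as well, rose by 1.52, Etv1 by 1.04, and Isl1 by 1.03 on the log2 scale (limma adjusted p = 0.00126, 0.0188, and 0.00521). Neuron and smooth muscle markers, given further on, rose in the same mice, and their part in these values was not tested. Atoh1, which starts the secretory lineage, and Foxa1 had log2 fold changes of −0.77 and −0.69 with adjusted p under 0.05 (0.0204 and 0.00926), short of the fold threshold. Foxa2 did not pass (−0.35). Neurog3, the factor of endocrine progenitors, was below the filter and was singled out after its values were seen: it was at 0, 0, and 0.0325 FPKM in Gm31629-/- mice (0, 0, and 1 fragments) and at 0.614, 0.763, and 0.795 in WT mice (19, 23, and 25 fragments). In a fit without the filter its log2 fold change was −0.77 (limma adjusted p = 0.00287). Neurog3 was thus at or near 0 in the mice in which L-cell hormones were high.

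Of 20 genes that process prohormones and build granules, all tested, 14 rose and 1 fell, with a median of 1.41. Of the 20, 18 had groups that did not overlap, against 57.8% of all tested genes. The largest differences were those of the granule protein Scg2 (3.73), the peptide-trimming enzyme Cpe (3.73), Ptprn (2.53), the PCSK2 chaperone Scg5 (2.44), the PCSK1 inhibitor Pcsk1n (2.31), and Scg3 (2.21). Cpe was at 83.3, 76.4, and 54.5 FPKM in Gm31629-/- mice and at 3.71, 5.68, and 3.96 in WT mice. Scg2 was at 23.3, 24.5, and 5.09 FPKM against 0.236, 0.199, and 0.0846. Ptprn was at 10.05, 19.8, and 4.61 FPKM in Gm31629-/- mice 1, 2, and 3. Mouse 2 thus stood out in Ptprn, as in the hormones, but not in Cpe or Scg2. Syt7 did not pass (−0.32). Outside the rule for named genes, Rph3al, a granule trafficking protein, was the 1 gene that fell (−1.76), and Pcsk1, which cuts proglucagon to GLP-1 in L cells, did not pass (0.54, limma adjusted p = 0.15).

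Neurons share this machinery, and 10 of 11 tested enteric neuron markers rose (of 12 listed). Their summed FPKM was 65.3 to 281 in Gm31629-/- mice and 2.84 to 5.66 in WT mice, and Elavl4 was listed at 0 in all 3 WT mice. Among 6 glia markers 5 rose, although their summed FPKM overlapped (69.4 to 90.1 against 74.6 to 115), since Erbb3 made up most of it. Smooth muscle markers rose in 9 of 10, from sums of 21.8 to 38.3 FPKM to sums of 1165 to 1794. The part of neurons and muscle in the granule, Tac1, Penk, Sst, Hhex, Etv1, and Isl1 values was not tested. Of 15 epithelial markers 4 fell, none rose, and 11 were not called, with sums of 8093 to 9590 FPKM against 12970 to 14170. Krt8, the most abundant of them, was at a mean of 2042 FPKM in Gm31629-/- mice against 4198 in WT mice. Epcam was at 1109 against 1104 and Cdh1 at 395 against 405, so the lower sum does not hold for each marker. Chga, Chgb, and the L-cell hormones were measured in every library, and of 6 islet markers 2 had a row, at sums of 0 to 0.504 FPKM in Gm31629-/- mice and 0 in WT mice.

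Insl5 and Nts are known to vary along the length of the gut, and genes of hindgut position also differed between the groups. Of 11 such genes 9 were tested, 3 rose, and 2 fell. Hoxd13, a marker of the distal end of the hindgut, was at 8.12, 19.2, and 16.4 FPKM in Gm31629-/- mice and listed at 0 in all 3 WT mice. Hoxb13, which was named after its values were seen, was at 59.0, 57.0, and 133 FPKM against 13.3, 5.66, and 6.03. Hoxd12 was likewise listed at 0 in all WT mice, whereas Car1, a carbonic anhydrase of colonic epithelium, fell (−2.14). Whether the tissue pieces were taken at the same place was not tested, and position and genotype cannot be told apart in these libraries.

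**Figure D4:**
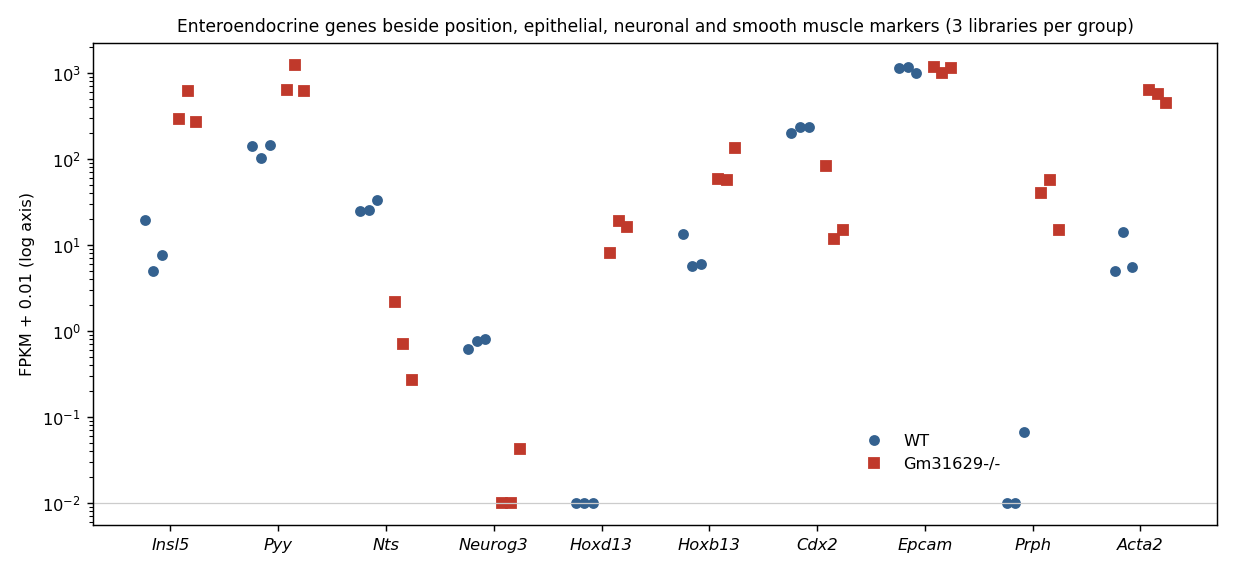
FPKM + 0.01 on a log axis in the 3 WT mice (blue circles) and 3 Gm31629-/- mice (red squares) for Insl5, Pyy, Nts, and Neurog3 beside position (Hoxd13, Hoxb13), epithelial (Cdx2, Epcam), neuronal (Prph), and smooth muscle (Acta2) markers. Points on the bottom line are listed at 0, and Hoxd13 separates the groups as Insl5 does, whereas Epcam overlaps between them.

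Genes that handle serotonin numbered 8, of which 7 were tested and 3 rose, with a median of 0.39. These were the serotonin transporter Slc6a4 (1.36), the vesicular transporter Slc18a2 (1.25), and Maob (1.19), an enzyme that degrades amines. Neuron and smooth muscle markers rose in the same mice (10 of 11 and 9 of 10 tested), and their part in these values was not tested. Maoa, the most abundant gene of the list that did not pass, was at 203, 31.9, and 118 FPKM in Gm31629-/- mice and at 143, 183, and 164 in WT mice. Maoa was lowest in mouse 2, in which Tph1 was highest. Mast cell markers, which bear on Tph1, had summed FPKM of 13.6 to 34.6 in Gm31629-/- mice and 15.1 to 23.5 in WT mice. Of 7 tested genes 2 were called higher (Hdc and Gata2) and 5 were not called. Tpsab1 was listed at 0 in all WT mice and at 0, 0.0259, and 0 FPKM in Gm31629-/- mice 1, 2, and 3.

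Receptors for these hormones and for serotonin numbered 23, of which 11 were tested, 6 rose, and 1 fell, with a median of 1.01. Glp2r, the receptor for the proglucagon product GLP-2, was at 2.83, 2.497, and 2.59 FPKM in Gm31629-/- mice and at 0.130, 0.153, and 0.0915 in WT mice (log2 fold change 1.69, limma adjusted p = 0.00035). Its values lay close together within each group. Npy4r, a receptor for pancreatic polypeptide, rose by 1.42, and the serotonin receptors Htr3a, Htr2b, and Htr7 by 3.83, 1.91, and 1.09 on the log2 scale. Sstr1, a somatostatin receptor, was at 1.62, 2.25, and 0.984 FPKM in Gm31629-/- mice and at 13.2, 7.17, and 15.6 in WT mice (log2 fold change −2.28, limma adjusted p = 0.00171). Sst and Sstr1 thus differed in opposite directions. Sort1, which binds neurotensin, did not pass (−0.82). Neurons and muscle of the gut wall express several of these receptors, and the part of their markers in these values was not tested.

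**Figure D5:**
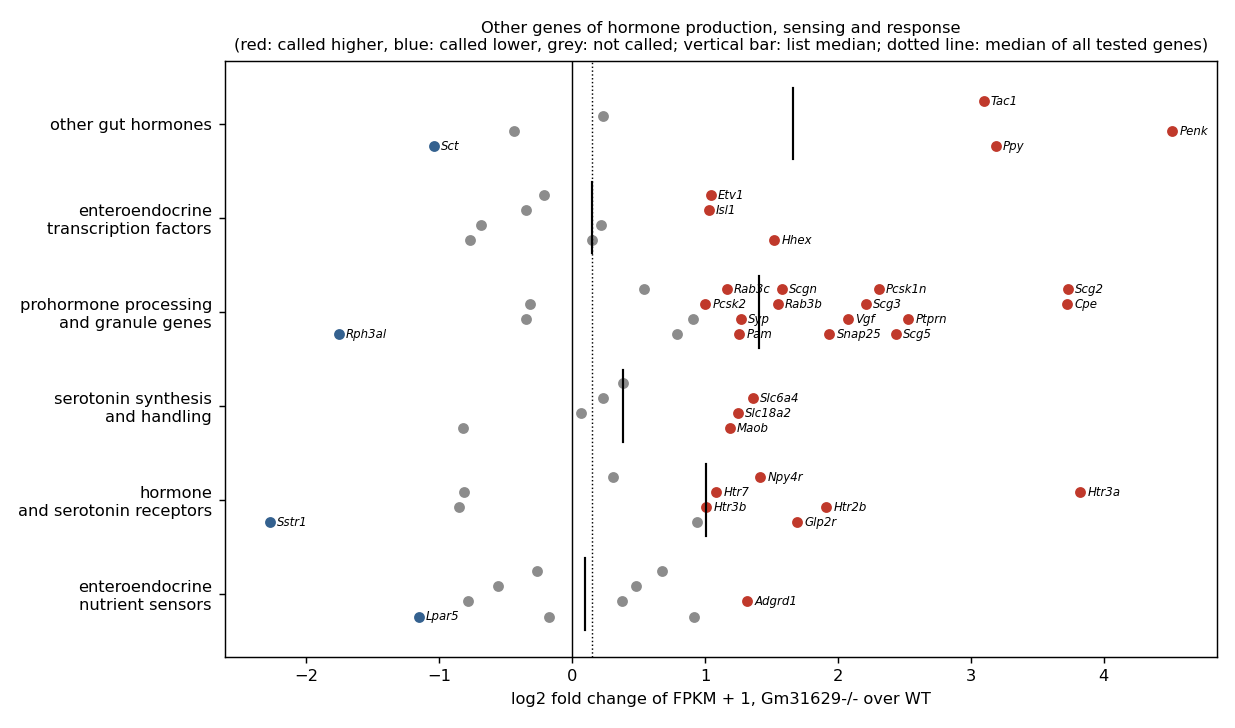
Log2 fold change of FPKM + 1, Gm31629-/- over WT, for the tested genes of 6 lists on hormone production, sensing, and response (red called higher, blue called lower, grey not called), with the list median as a vertical bar and the median of all tested genes, 0.15, as a dotted line. Of the 20 processing and granule genes, 14 are red, and of the 9 transcription factors 3 are red.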

How the data were processed

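RNA-Seq libraries came from distal colon of 3 Gm31629-/- and 3 WT mice. The authors deposited FPKM values for 27546 genes, and per the labels reads were aligned with HISAT2 2.1.0 to GRCm38 and counted with HTSeq 0.6.0; the annotation release is not given in the sources used here, and the stated kit does not mark strand. Symbols (27488 matched) and locations came from GENCODE M21, and promoter sequences from RefSeq. The fragments behind each FPKM value were recovered from gene length: among values of at most 20 fragments, 96.3% to 97.3% were whole to within 0.1, which put depth at 18004700 to 18794200 fragments a library.

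For genes whose FPKM averaged 0.5 or more, log2(FPKM + 1) was compared by limma 3.58.1 (R 4.3.3; a trend was allowed in eBayes). This is a scale that understates the change of low genes, and Benjamini-Hochberg adjustment covered all 14657. The script was tested on simulated data. The paper's count-based test was not used, since the values are FPKM. Shares were compared by an exact permutation test.

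The members and lists were chosen with earlier results of these data known. Named were all members, up to 6 genes per related list with adjusted p under 0.05 and the largest fold change, the most abundant gene not passing, and the 3 genes of nearest pattern. Alternatives were no filter, a minimum mean FPKM of 5, a pseudocount of 0.1, 3 scalings, eBayes without a trend, a replicate block, leaving out each mouse, adjusted p alone, and voom on recovered fragments. Ratios to Chga and Chgb were added after seeing the data.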

Additional observations from a re-analysis of the deposited data

How the results depend on the processing

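Gcg, Pyy, Sst, Insl5, and Nts kept their direction and their call in 15 of 15 alternative settings each, with log2 fold changes of 1.83 to 2.88, 2.26 to 3.22, 2.45 to 3.39, 4.79 to 5.75, and −5.17 to −3.47. Their highest adjusted p was 0.021, 0.00754, 0.00929, 0.00535, and 0.00419. The number of called members was 5 in every setting but the one without Gm31629-/- mouse 3, where Cck made it 6. With the replicate block the number was also 5 and no call of a member changed. Same-numbered mice did not deviate together over the tested genes (correlations 0.0358, −0.108, and 0.0141). Whether they share more than a number cannot be told from these values.

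The sign was not stable for 3 genes that were not called. Chga was −0.13 under median ratio scaling, 0.73 under epithelial scaling, and −0.26 to 0.64 when each mouse was left out in turn. Its value of 0.64, without Gm31629-/- mouse 3, had a limma adjusted p of 0.0464 but was short of the fold threshold. Chgb was 0.48 under epithelial scaling and −0.63 to 0.28 without single mice. Tph1 was 0.44 under epithelial scaling and −0.75 to 0.38 without single mice. With Chga and Chgb in the hormone sum, the differences in share were 0.33 points for Gcg and 10.7 for Pyy, against −4.76 and −3.09 without them, and −0.75 for Cck and −8.44 for Nts. Neurod1 fell below the filter without Gm31629-/- mouse 2, and at a minimum mean FPKM of 5 it and Tph1 gave no value. Neurod1 and the Gm31629-/- values of Nts rest on few fragments, and counting limits cover counting error only.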

Other observations

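A list of receptors, channels, and transporters drawn up for sensing by enteroendocrine cells held 18 genes, and not each is an established sensor of luminal content. Of 10 tested, 1 rose and 1 fell, a share near the 23.1% called among all genes, and their median log2 fold change was 0.10 against 0.15 for all genes tested. Adgrd1, an adhesion receptor, was higher in Gm31629-/- mice (1.32, limma adjusted p = 0.0117), and Lpar5, a receptor for lysophosphatidic acid, was lower (−1.16, limma adjusted p = 0.00486). The part of neuron and smooth muscle markers, which rose in the same mice, in the Adgrd1 value was not tested. Ffar2, a receptor for short-chain fatty acids on L cells, was at 3.45, 4.02, and 3.96 FPKM in Gm31629-/- mice and at 6.74, 7.19, and 7.97 in WT mice, and its log2 fold change, −0.79, was short of the fold threshold. The glucose transporter Slc5a1 had a log2 fold change of −0.56 (limma adjusted p = 0.048), and Ffar4, a receptor for long-chain fatty acids, one of −0.17 (limma adjusted p = 0.668).

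Small intestine markers, which bear on Nts, were measured in 11 of 12 genes, and of 8 tested 1 was called higher and 2 lower in Gm31629-/- mice. Their summed FPKM was 21.2 to 83.9 in Gm31629-/- mice and 125 to 140 in WT mice. Most of the WT sum was Fabp2 and Alpi, the 2 called lower, at WT means of 68.2 and 49.8 FPKM. Lyz1 was the 1 called higher. Apoa4 was listed at 0 in all WT mice and at 0.0599, 0.0299, and 0 FPKM in Gm31629-/- mice 1, 2, and 3. The part of these markers in the Nts value was not tested.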
